A study of Homo sapiens with 90 samples.

Results

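Imazalil, an imidazole fungicide, was given at 10 µM to A673 cells, an established human Ewing sarcoma line, and the messenger RNA of the cells was compared with that of cells given the dimethyl sulfoxide (DMSO) vehicle alone. The comparison took the 3 arrays of cells treated with imazalil at 10 µM and the 3 DMSO arrays whose values had been normalised together with the imazalil samples, 6 of the 90 array columns of the series, and all probe sets were described. A673 cells were plated at 26000 per well, and both groups were in medium with 0.2% DMSO for 24 h, so that imazalil was the only named difference between them. The other columns used here were 24 arrays at 8 lower imazalil concentrations, from 0.001 to 3 µM, and the sets of the triazole fungicide fenbuconazole and of the herbicide 2,4-D, with the same concentrations and 3 arrays in each. The labels number the replicates 1 to 3, and the methods speak of independent experiments on separate batches without tying them to these numbers. P-values therefore measure the spread between these arrays. A673 is 1 line, and nothing here bears on untransformed cells.

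Azole fungicides block lanosterol demethylase, the CYP51 enzyme of sterol synthesis. In human cells sterol shortage releases the SREBP transcription factors, which switch on cholesterol and fatty acid synthesis. Azoles are also known as ligands of xenobiotic receptors that induce drug-metabolising enzymes. Amino acid shortage and stress in the endoplasmic reticulum act through another factor, ATF4, and growth factor signalling through ERK switches on immediate early genes such as EGR1.

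The 6 arrays were alike in distribution, and all 30 columns of the imazalil set had medians between 3.34 and 3.39 on the log2 scale. The 8 measured markers of Ewing sarcoma had levels of 8.70 to 12.5 (median 9.96), and the blood markers (2.53 to 3.40) and liver markers (2.73 to 3.43) lay close to these medians. Of the 9 epithelial markers KRT18 (10.8) and KRT8 (6.16) were expressed and the others, CDH1 and EPCAM among them, were at 3.36 or below. The mean level of the epithelial list was 4.10 to 4.17 in DMSO and 4.10 to 4.28 at 10 µM. The vehicle columns deposited with imazalil and with 2,4-D behaved as the same arrays, since same-numbered columns deviated together (r = 0.867 to 0.878). Those of the fenbuconazole set did not (r = 0.105 to 0.185). All columns of the fenbuconazole set had lower medians, 2.76 to 2.83, whereas those of the 2,4-D set had 3.40 to 3.46.

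At 10 µM imazalil, TXNIP fell and CPT1A rose, and no other probe set passed. TXNIP encodes a thioredoxin-binding arrestin that restrains glucose uptake, and CPT1A encodes the carnitine palmitoyltransferase that loads long-chain fatty acids for import into mitochondria. The passing rule was an adjusted p under 0.05 in a limma fit of the 30 imazalil columns with the replicate number as a block and Benjamini-Hochberg adjustment over all 54613 probe sets. It was met by 2 of them, or 0.00366%. At an unadjusted p under 0.05 there were 3004 probe sets, 1546 higher and 1458 lower, where 2731 would arise by chance. Changes were small, with 33 probe sets more than 0.5 higher and 30 more than 0.5 lower on the log2 scale.

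**Figure D1:**
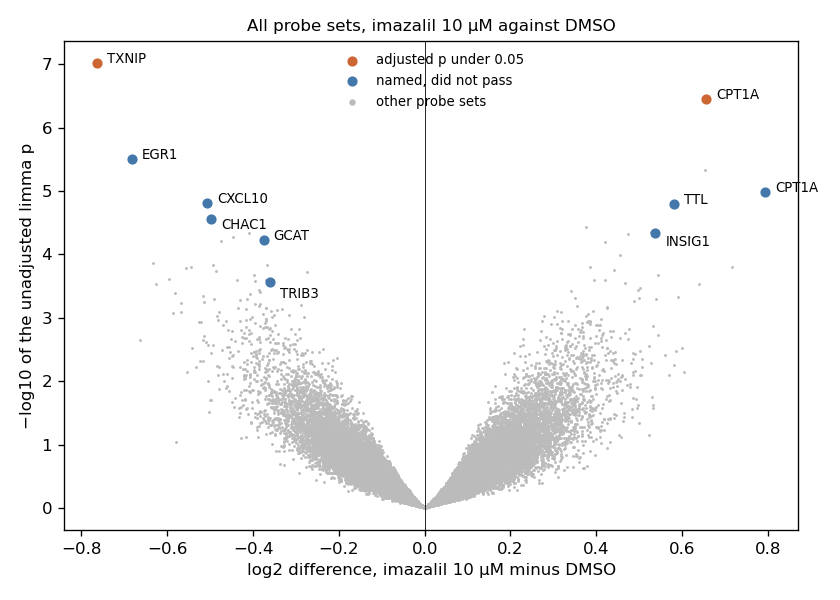
Log2 difference between 10 µM imazalil and DMSO (horizontal axis) against −log10 of the unadjusted limma p (vertical axis) for 54613 probe sets, with 10 probe sets named. The 2 orange points, TXNIP at -0.76 and CPT1A at 0.66, are the probe sets that passed, and the blue points did not pass.

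Because the results turn on a few genes, the 250 bases before the RefSeq transcription start (GRCh38.p14) of the 2 called genes and of 3 genes that stand for the regulators named above are shown, 5′ to 3′ along the gene. Capitals mark a match to 1 of the motifs searched. These were the carbohydrate response element read by MondoA and ChREBP (CACGNG, then any 5 bases, then CNCGNG), the CArG box read by serum response factor (CC, then 6 bases that are A or T, then GG), the C/EBP-ATF element read by ATF4 (TGATGNAA), a sterol response element read by SREBP (TCANNCCAC) and the E-box CACGTG, each on both strands.
TXNIP, chr1:145996580-145996829, minus strand: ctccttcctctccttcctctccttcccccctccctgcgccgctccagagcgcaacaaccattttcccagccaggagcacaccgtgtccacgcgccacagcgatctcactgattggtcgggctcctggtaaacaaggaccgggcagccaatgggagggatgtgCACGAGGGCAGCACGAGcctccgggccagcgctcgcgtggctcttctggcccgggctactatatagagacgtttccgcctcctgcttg
CPT1A, chr11:68844278-68844527, minus strand: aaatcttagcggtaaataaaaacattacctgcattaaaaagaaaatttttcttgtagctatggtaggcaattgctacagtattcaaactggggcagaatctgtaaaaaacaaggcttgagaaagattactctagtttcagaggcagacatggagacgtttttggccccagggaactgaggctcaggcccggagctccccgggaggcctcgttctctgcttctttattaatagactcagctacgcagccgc
EGR1, chr5:138465229-138465478, plus strand: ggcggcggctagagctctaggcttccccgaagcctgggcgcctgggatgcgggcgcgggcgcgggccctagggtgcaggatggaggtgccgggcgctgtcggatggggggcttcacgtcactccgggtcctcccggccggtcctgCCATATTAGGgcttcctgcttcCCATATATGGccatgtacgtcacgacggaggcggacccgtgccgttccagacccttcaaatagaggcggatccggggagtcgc
CHAC1, chr15:40953221-40953470, plus strand: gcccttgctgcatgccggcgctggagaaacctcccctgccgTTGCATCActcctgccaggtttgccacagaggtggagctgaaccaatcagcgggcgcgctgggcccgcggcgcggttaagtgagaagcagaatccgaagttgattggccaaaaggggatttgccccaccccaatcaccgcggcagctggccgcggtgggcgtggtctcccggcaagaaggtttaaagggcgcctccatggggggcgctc
INSIG1, chr7:155297628-155297877, plus strand: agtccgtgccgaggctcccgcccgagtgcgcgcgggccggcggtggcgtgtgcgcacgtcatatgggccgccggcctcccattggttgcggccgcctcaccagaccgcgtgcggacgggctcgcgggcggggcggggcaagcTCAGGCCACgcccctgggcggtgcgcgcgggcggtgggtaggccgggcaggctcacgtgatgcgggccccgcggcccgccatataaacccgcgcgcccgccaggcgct
The window of TXNIP, from the first of its 2 listed starts, held a carbohydrate response element at bases 88 to 72 before the start, a motif found in 0.424% of 35116 RefSeq promoters. EGR1 held 2 CArG boxes, at bases 105 to 96 and 83 to 74 (1.16% of promoters hold at least 1). CHAC1 held the C/EBP-ATF element, written here in its reverse reading, at bases 209 to 202 (3.14%), and INSIG1 a sterol response element at bases 108 to 100 (3.14%) and, not in capitals, an E-box (6.34%). None of the 5 motifs was in the window of CPT1A. A match is a description of the letters and no evidence of binding.

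TXNIP (probe set 201009_PM_s_at) had log2 levels of 7.15, 7.60 and 7.02 in DMSO replicates 1 to 3 and of 6.37, 6.65 and 6.46 at 10 µM. Each treated array was below every DMSO array. The level fell by 0.76 on the log2 scale, to 0.589 of the DMSO level (SE 0.10, 95% interval -0.97 to -0.55, limma adjusted p = 0.00526), and the same-numbered pairs differed by -0.78, -0.95 and -0.56. In RNA from whole wells, fewer cells with the transcript and less transcript per cell cannot be told apart. The other TXNIP probe sets did not pass, at -0.63 (201008_PM_s_at, adjusted p = 0.382) and -0.63 (201010_PM_s_at, adjusted p = 0.338) by limma. On the latter, replicate 1 differed by -1.17 and replicates 2 and 3 by -0.47 and -0.25. ARRDC4, another arrestin gene that shares its regulation by MondoA with TXNIP, had log2 levels of 5.02, 5.25 and 5.05 in DMSO and 4.59, 4.54 and 5.07 at 10 µM. It stood at -0.37 and did not pass (limma adjusted p = 0.801). Of the 10 measured genes of the MondoA and arrestin list 5 were above and 5 below DMSO.

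CPT1A (203633_PM_at) had log2 levels of 8.53, 8.47 and 8.61 in DMSO and of 9.06, 9.38 and 9.13 at 10 µM. The groups did not overlap, and the treated arrays spread more widely than the DMSO arrays. The level rose by 0.66 on the log2 scale, to 1.57 times the DMSO level (SE 0.09, 95% interval 0.46 to 0.85, limma adjusted p = 0.00953). The same-numbered pairs differed by 0.53, 0.91 and 0.52. A second CPT1A probe set, 203634_PM_s_at, had levels of 5.36, 5.94 and 5.35 in DMSO and 6.29, 6.56 and 6.17 at 10 µM. It did not overlap either, and its difference was larger, 0.79, with a larger error (SE 0.14, limma adjusted p = 0.111). The remaining CPT1A probe sets were at 0.50 (210688_PM_s_at, adjusted p = 0.425) and 0.25 (210687_PM_at, adjusted p = 0.939).

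Whether the 2 genes passed depended on the block and on the arrays kept. Fewer arrays also give a larger error, so a lost call does not by itself show a dependence on a single array. Without the replicate block limma left 0 calls, each of the pair having an adjusted p of 0.0734, and 2593 probe sets were under 0.05 before adjustment. They were also lost when all arrays of replicate 1, 2 or 3 were left out (adjusted p from 0.233 to 0.539), and when the DMSO array of replicate 1 or 2 or the 10 µM array of replicate 2 was left out. Without the 10 µM array of replicate 3, TXNIP alone passed. The differences themselves lay between -0.86 and -0.67 for TXNIP and between 0.53 and 0.72 for CPT1A without each replicate number in turn.

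**Figure D2:**
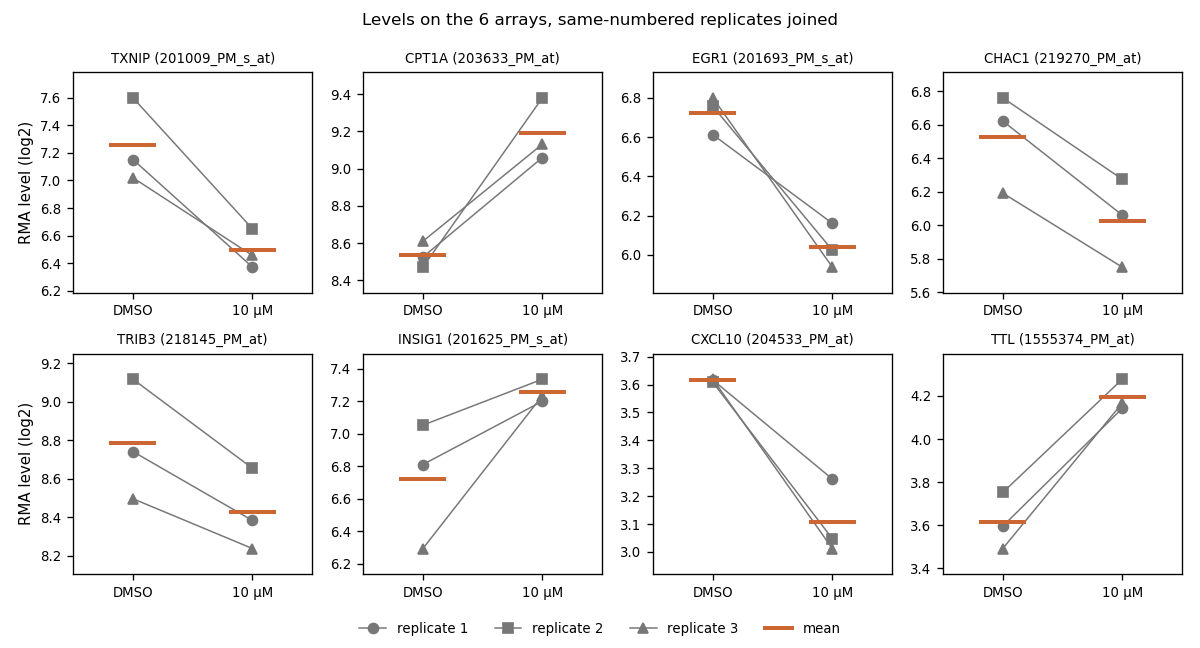
Log2 level (vertical axis) of 8 genes on the 3 DMSO arrays and the 3 arrays at 10 µM imazalil, with lines joining same-numbered replicates and orange bars for the group means. TXNIP, EGR1 and CXCL10 were lower and CPT1A, INSIG1 and TTL higher on every treated array than on any DMSO array, whereas the ranges of CHAC1 and TRIB3 overlapped between the groups although all 3 lines descend.

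Both called genes stood further from DMSO at 10 µM than at any lower concentration in the mean. CPT1A had a mean log2 level of 8.54 ± 0.07 in DMSO, then 8.55 ± 0.13 (0.3 µM), 8.77 ± 0.14 (1 µM), 8.89 ± 0.12 (3 µM) and 9.19 ± 0.17 with 10 µM (mean ± SD of 3 arrays). TXNIP had 7.26 ± 0.30 in DMSO, then 7.22 ± 0.19 (0.3 µM), 7.16 ± 0.12 (1 µM), 6.99 ± 0.19 (3 µM) and 6.49 ± 0.14 with 10 µM. At 3 µM the differences from DMSO were 0.35 for CPT1A (limma adjusted p = 0.823) and -0.26 for TXNIP (adjusted p = 0.901), so neither had passed there. At each of the 8 lower concentrations limma made 0 calls. There 2453 to 3317 probe sets were under 0.05 before adjustment, and the smallest adjusted p was 0.154. The count of 3004 at 10 µM lies inside that range. The SD of the log2 differences over all probe sets was 0.128 at 10 µM and 0.122 to 0.131 at the others.

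**Figure D3:**
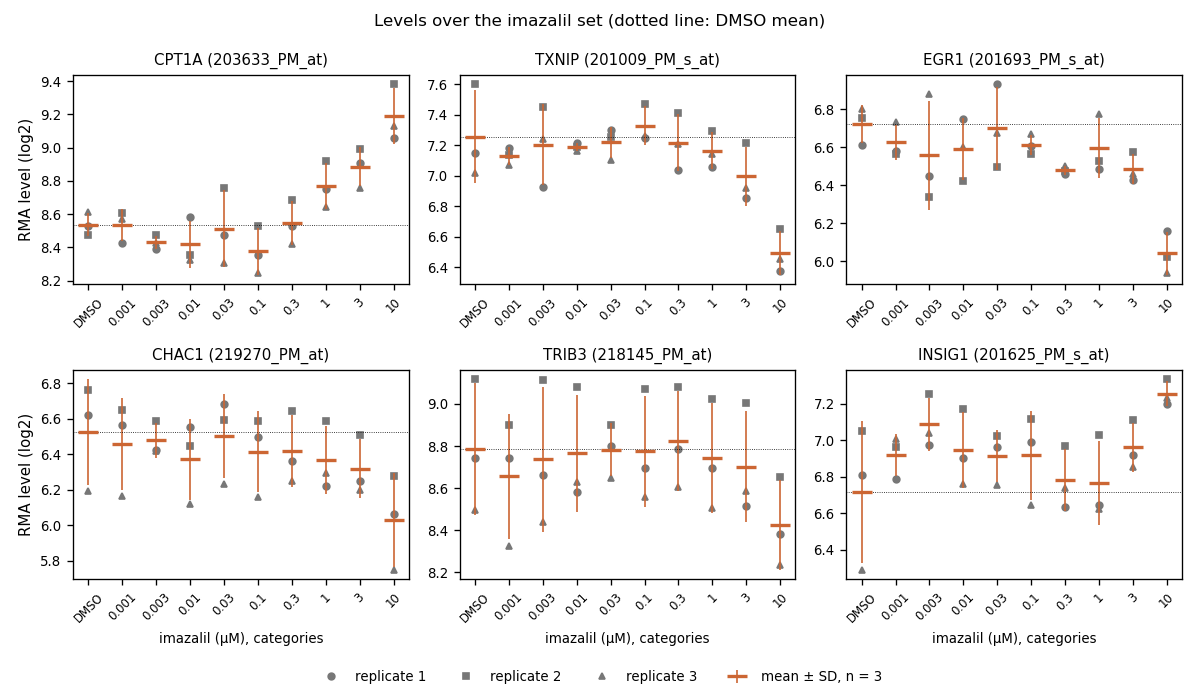
Log2 level (vertical axis, mean ± SD, n = 3 arrays) of 6 genes in DMSO and at 9 imazalil concentrations in µM (horizontal axis, ordered groups, not to scale), with the DMSO mean dotted. CPT1A reaches 9.19 and TXNIP 6.49 at 10 µM, each past every lower concentration, while INSIG1 lies above its DMSO mean of 6.72 at each concentration.

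The 24 arrays at the lower concentrations gave a second reference that does not use the DMSO arrays, although both comparisons share the 3 arrays at 10 µM. In the same limma fit 11 of 54613 probe sets passed (0.0201%), 4 higher and 7 lower at 10 µM. TXNIP fell by 0.69 (adjusted p = 0.000114), by 0.67 (adjusted p = 0.0275) and by 0.59 (adjusted p = 0.0429) on its 3 probe sets. CPT1A rose by 0.63 (adjusted p = 0.000114) and by 0.77 (adjusted p = 0.00318) on a pair of probe sets. EGR1, an immediate early zinc finger transcription factor, fell by 0.54 (201693_PM_s_at, adjusted p = 0.0150) and by 0.37 (201694_PM_s_at, adjusted p = 0.0275). ETV5, an ETS transcription factor induced through ERK, fell by 0.27 (adjusted p = 0.0408). CPLANE2, a cilium assembly gene named after its values were seen, fell by 0.42 (adjusted p = 0.0275), and 2 probe sets had no gene name. Without the replicate block 6 passed. TXNIP on 201008_PM_s_at (adjusted p = 0.0885) and 201010_PM_s_at (0.575), EGR1 on 201694_PM_s_at (0.141) and ETV5 (0.304) were the named ones then lost, and without replicate 1, 2 or 3 there were 6, 1 and 2.

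The genes with the next smallest p against DMSO did not pass, and their values describe where the largest differences lay. EGR1 (201693_PM_s_at) had log2 levels of 6.61, 6.76 and 6.80 in DMSO and 6.16, 6.02 and 5.94 at 10 µM. It came nearest to the threshold among named genes, at -0.68 (SE 0.11, limma adjusted p = 0.0571), and its other probe sets were at -0.44 and -0.32. CXCL10, an interferon-induced chemokine with levels near the medians of the arrays, had 3.62, 3.61 and 3.62 in DMSO. It had 3.26, 3.05 and 3.01 at 10 µM (-0.51, limma adjusted p = 0.127). CHAC1, which degrades glutathione and is induced by ATF4, had 6.62, 6.76 and 6.19 in DMSO and 6.06, 6.27 and 5.75 at 10 µM (-0.50, adjusted p = 0.191). Its groups overlapped, and each pair differed by a like amount, -0.56, -0.49 and -0.44. TRIB3, a pseudokinase induced by ATF4, had 8.74, 9.12 and 8.50 in DMSO and 8.38, 8.65 and 8.24 at 10 µM (-0.36, adjusted p = 0.382). GCAT, which releases glycine in threonine breakdown, was at -0.38, ETV5 at -0.28 and the deacetylase gene HDAC7 at -0.48, although a second HDAC7 probe set was at -0.07. The other lower genes were MTARC1, a mitochondrial amidoxime reductase (-0.55), the protease gene KLK7 (-0.49), the cytokine receptor gene IL17RB (-0.40), DLGAP4, a postsynaptic scaffold gene (-0.60), the oxidoreductase gene WWOX (-0.37), the antisense RNA EPCIP-AS1 (-0.39) and the pseudogene KIAA1191P2 (-0.36). On the probe set with the smallest p of each gene, all of these differences were smaller against the arrays at lower concentrations. There KLK7 was at -0.18, IL17RB at -0.08, WWOX at -0.16, EPCIP-AS1 at -0.14, KIAA1191P2 at -0.18, HDAC7 at -0.26 and DLGAP4 at -0.37. CXCL10 was at -0.35, CHAC1 at -0.39, TRIB3 at -0.32, GCAT at -0.28 and MTARC1 at -0.39. KLK7, IL17RB, EPCIP-AS1 and KIAA1191P2 had mean DMSO levels of 3.36, 2.69, 2.82 and 2.79, near or below the medians of the arrays.

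On the higher side INSIG1, which holds the SREBP precursor in the endoplasmic reticulum and is itself an SREBP target, had log2 levels of 6.81, 7.05 and 6.29 in DMSO and 7.20, 7.33 and 7.23 at 10 µM on the probe set 201625_PM_s_at. The treated arrays lay above all DMSO arrays, and the low DMSO value of replicate 3 gave the widest pair, 0.94 against 0.39 and 0.28. INSIG1 stood at 0.54 (limma adjusted p = 0.192) there and at 0.21 and 0.34 on its other probe sets. TTL, which adds tyrosine back to tubulin, was at 0.58 on one dim probe set (adjusted p = 0.127), whereas its others were at 0.12, 0.09 and -0.04. The remaining genes were KREMEN1, a Dickkopf receptor of the Wnt pathway (0.64), DIP2C (0.62), VPS13B, a lipid transfer protein gene (0.59), GINS2, a subunit of the replicative helicase complex (0.54), SECTM1 (0.53), the RNA gene TINCR (0.50), the noncoding RNAs THUMPD3-AS1 and OLMALINC (0.47 for both), the zinc finger genes ZBTB14 (0.46) and FEZF2 (0.40), IGLL5 (0.42) and the calcium sensor gene STIM1 (0.38). All of these differences were smaller against the lower concentrations, where GINS2 stood at 0.00, THUMPD3-AS1 at 0.05, ZBTB14 and STIM1 at 0.15, DIP2C at 0.16, IGLL5 at 0.20, KREMEN1 at 0.25, SECTM1, VPS13B and OLMALINC at 0.29, FEZF2 at 0.31, TTL and TINCR at 0.32 and INSIG1 at 0.34. THUMPD3-AS1 had a mean level of 4.75 in DMSO and of 5.00 to 5.32 at the concentrations of imazalil, with 5.22 at 10 µM. TINCR, FEZF2 and IGLL5 had mean DMSO levels of 2.78, 2.79 and 2.63, below the medians of the arrays, and VPS13B had 3.35, near them. Each gene is given on its probe set with the smallest p, and other probe sets of these genes were not all described. Over all probe sets 4.31% lay higher and 3.66% lower at 10 µM with no overlap between the groups. Of these 30 genes 14 of 15 and 13 of 15 did so, a count that choosing them by this contrast sets.

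Genes that azoles are best known for stood close to DMSO. CYP51A1, the human lanosterol demethylase, stood at 0.05 (95% interval -0.16 to 0.26) on its brighter probe set, with a mean log2 level of 9.76 in DMSO. HMGCS1 (0.06) and SQLE (0.04), early and middle steps of cholesterol synthesis, had intervals of -0.16 to 0.28 and -0.11 to 0.18. CYP1A1, the best known target of the aryl hydrocarbon receptor, stood at -0.05 and CYP1B1, another target, at -0.09. CYP3A4 (0.09) and ABCB1 (-0.00), targets of the pregnane X receptor, HMOX1 (0.11), a target of NRF2, and DDIT3 (-0.06), a factor of endoplasmic reticulum stress, were the others. CYP1A1 had a mean level of 3.14 in DMSO, below the medians of these arrays, and ABCB1 had 2.42, lower still. A flat value at such levels does not show that the receptors did not respond. Limma gave an adjusted p of 0.990 or more for each of these 9 genes. Their widest interval was that of CYP1B1, -0.44 to 0.26.

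Gene lists were described through 1 probe set per gene, that with the highest mean over the 30 imazalil columns, for 819 measured genes in 53 lists. Over all 19774 genes 50.1% were above and 49.9% below DMSO, 12% were higher and 11.4% lower in 3 of 3 same-numbered pairs, and the median difference was 0.00. CPT1A was the only list member that passed on that probe set, since TXNIP passed on a dimmer one. The members named below are those furthest from DMSO among the ones on the same side in all 3 pairs, besides genes already described.

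The list named ATF4 stress regulators holds genes induced by ATF4, CHAC1 and TRIB3 among them. All 17 of its measured genes were below DMSO, 9 of them in 3 of 3 pairs, with a median log2 difference of -0.14. CHAC1 (-0.50), TRIB3 (-0.36), ATF3, a stress-induced partner of ATF4 (-0.34), DDIT4, an inhibitor of mTORC1 (-0.23), and ATF5 (-0.22) were furthest from it. The list's median was -0.30, -0.11 and -0.15 in pairs 1 to 3. It was -0.11 at 3 µM, -0.04 at 1 µM and between -0.05 and -0.01 at the 6 lower concentrations. Against the 24 arrays of lower concentrations it was -0.10, with 16 of 17 lower, and without replicate 3 it was -0.22.

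Of 17 genes of amino acid and one-carbon synthesis 16 were lower, 7 in 3 of 3 pairs, with a median of -0.12. CTH, which makes cysteine, had log2 levels of 7.49, 7.89 and 7.69 in DMSO and 7.43, 7.28 and 7.21 at 10 µM (-0.39, limma adjusted p = 0.647). PCK2, the mitochondrial phosphoenolpyruvate carboxykinase, had 7.26, 7.65 and 6.84 in DMSO and 6.74, 7.06 and 6.80 at 10 µM (-0.39, adjusted p = 0.449), with overlapping groups. ASNS, the asparagine synthetase, was at -0.28, the aspartate aminotransferase gene GOT1 at -0.17 and the cystathionine synthase gene CBS at -0.15. The list's median at the lower concentrations ran from -0.04 to 0.03, and against them it was -0.08. It was -0.04 at 10 µM when each gene was taken as the median of its probe sets. Of the aminoacyl-tRNA synthetases, which charge tRNAs with amino acids, 17 of 19 were lower (median -0.05, WARS1 -0.14, CARS1 -0.12), and of the amino acid transporters 10 of 11 (median -0.08, SLC38A1 -0.12). The transporter list was at -0.08 and -0.09 at 0.003 and 0.1 µM as well. In the promoter windows the C/EBP-ATF element was in 4 of 15 genes of the ATF4 stress list with a RefSeq entry (ATF3, CEBPG, CHAC1 and FGF21). It was in 3 of 13 of the synthesis genes (ASNS, GOT1 and MTHFD1L).

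The unfolded protein response, a related stress program of the endoplasmic reticulum, had 19 of 24 genes lower with a median of -0.03. XBP1, its transcription factor, was at -0.17 and the chaperone gene CALR at -0.15, while ERO1B, an oxidase of the same compartment, was at 0.28. Genes listed as p53 targets had 11 of 14 lower, with a median of -0.08 and of -0.06 against the lower concentrations. BBC3, a death effector, was at -0.33 and CDKN1A, an inhibitor of the cell cycle, at -0.30. A673 is a p53-defective line, and what moved these genes was not tested. The G2 and mitosis genes had 17 of 23 lower (median -0.06, BUB1B 0.11 and AURKA -0.07) and the S phase genes 11 of 22 (median 0.00).

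Immediate early genes had 17 of 22 members lower, 8 in 3 of 3 pairs and 0 higher in all pairs, with a median of -0.06. EGR1 on its brightest probe set (-0.44), the nuclear receptor genes NR4A1 (-0.41) and NR4A2 (-0.29), ATF3 (-0.34), which the ATF4 list also holds, and EGR3 (-0.28) led. FOS, the partner of JUN in AP-1, was at 0.02. NR4A1 lay at -0.02 and NR4A2 at -0.08 against the lower concentrations, where EGR1 was at -0.41 on that probe set. Without replicate 2 the list's median was -0.13. The list of ERK output and feedback had 18 of 23 lower (median -0.06, and -0.02 without replicate 3), with the ETS factors ETV4 (-0.37), ETV5 (-0.28) and ETV1 (-0.17) in front. The CArG box was in 3 of 18 immediate early promoters (EGR1, EGR2 and SRF).

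**Figure D4:**
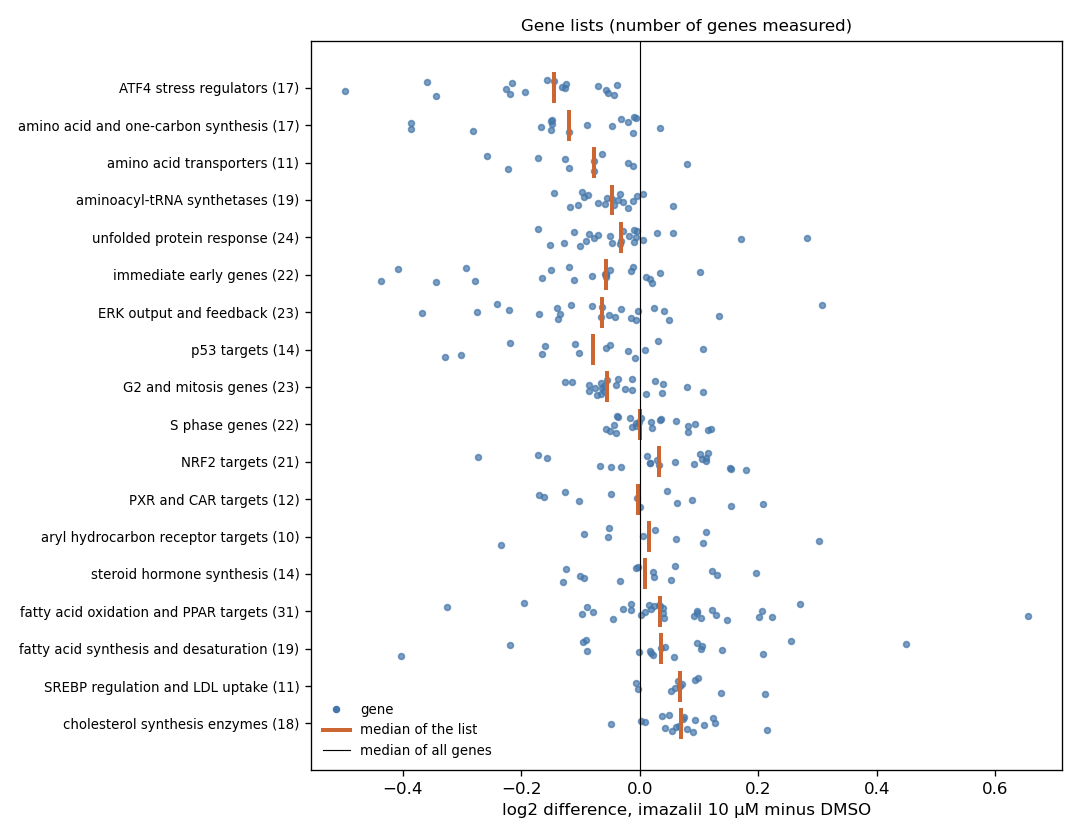
Log2 difference between 10 µM imazalil and DMSO (horizontal axis) for the genes of 18 lists, 1 point per gene, with an orange mark at each list's median and a black line at the median of all genes. The medians of the ATF4 stress regulators (-0.14) and of amino acid and one-carbon synthesis (-0.12) lie to the left of the line and those of cholesterol synthesis and SREBP regulation (0.07 for both) to its right, with CPT1A at 0.66 as the outermost point on the right.

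Of 18 cholesterol synthesis enzymes 17 were above DMSO, 7 of them in 3 of 3 pairs and none lower in all, with a median log2 difference of 0.07. The epithelial markers had as high a median, 0.07, with 7 of 9 higher and 3 of them in 3 of 3 pairs (KRT8 0.20, KRT19 0.18), and their part in the result was not tested. DHCR7, the reductase of the last step, had log2 levels of 9.75, 9.76 and 9.54 in DMSO and 9.92, 9.86 and 9.92 at 10 µM (0.21, limma adjusted p = 0.771), without overlap. The lanosterol synthase gene LSS was at 0.13, the isomerase gene IDI1 at 0.11, ACAT2, which makes acetoacetyl-CoA, at 0.09 and the desaturase gene SC5D at 0.07. The pairs had list medians of 0.10, 0.09 and 0.03, and the same list stood at 0.07 at 0.003 µM and at 0.04 at 0.001 µM, so the value at 10 µM was not above that at 0.003 µM. Without replicate 2 the median at 10 µM was 0.04, and against the lower concentrations it was 0.05. The list of SREBP regulation had 9 of 11 higher, with a median of 0.07 at 10 µM and between -0.03 and 0.03 at the lower concentrations (0.12 and 0.05 without replicates 1 and 3). INSIG1 was at 0.21 on its brightest probe set and STARD4, a sterol carrier, at 0.09. Targets of LXR, the receptor for oxysterols, had 7 of 10 higher (median 0.06), with APOC1 at -0.23. The sterol response element searched was in 0 of 16 promoters of the enzymes and in 2 of 11 of the regulators (INSIG1 and SREBF2).

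Fatty acid synthesis and desaturation had 13 of 19 genes higher and a median of 0.04 (0.06 without replicate 2). PNPLA3, a lipid droplet protein (0.45), SREBF1, the SREBP gene of fatty acid synthesis (0.26), and FADS1, a desaturase (0.14), were higher in all pairs, whereas ACACB, the acetyl-CoA carboxylase whose product inhibits CPT1, was lower in all. ACACB had log2 levels of 6.04, 5.93 and 6.10 in DMSO and 5.60, 5.57 and 5.68 at 10 µM (-0.40, limma adjusted p = 0.588). It stood at -0.14 against the lower concentrations. FASN, the fatty acid synthase, was at 0.04 and the desaturase gene SCD at 0.10. In fatty acid oxidation and PPAR targets 22 of 31 genes were higher, 7 in 3 of 3 pairs, with a median of 0.03. Next to CPT1A these were led by SLC25A20, the carrier that brings acylcarnitines across the inner mitochondrial membrane (0.27), and ACAA2, a thiolase (0.15). PPARA, the receptor of the pathway, was at -0.33 near the floor of the arrays, UCP3 at -0.19, and the PPAR targets PDK4 and ANGPTL4 at -0.03 and 0.22. Without replicate 1 the list's median was 0.08.

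The lists of other azole responses had medians near that of all genes, and lists of other functions are given after them. Targets of the aryl hydrocarbon receptor had 6 of 10 higher (median 0.02), with ALDH3A1, an aldehyde dehydrogenase, at 0.30 and the receptor gene AHR at -0.23. Targets of the receptors PXR and CAR had 5 of 12 higher (median -0.00), with ALAS1, the first enzyme of heme synthesis, at 0.21. Steroid hormone synthesis had 7 of 14 higher (median 0.01, HSD17B2 0.20), and NRF2 targets 15 of 21 (median 0.03, ABCC3 0.15, TXNRD1 0.11). Glycolysis had 13 of 22 higher (median 0.01), with PFKFB4, a regulator of glycolytic flux, at 0.38 and the glucose transporter gene SLC2A1 at -0.22. Ribosomal proteins (7 of 23 higher), respiratory chain subunits (11 of 25) and proteasome subunits (14 of 17) had medians of -0.01, -0.00 and 0.03. Genes of ribosome production had 14 of 17 lower, 5 of them in 3 of 3 pairs (median -0.03). Against the lower concentrations 16 of these 17 were lower (median -0.05). Targets that EWSR1-FLI1 activates, the program of this tumour, had 11 of 21 higher (median 0.02), and those it represses 6 of 13 (median -0.07). Of the nuclear receptors 11 of 17 were higher (median 0.05), NR2F1 at 0.52 among them. Against the lower concentrations NR2F1 was at 0.06, whereas 14 of the 17 were higher there and the list's median was 0.10. Against DMSO the medians of all 53 lists lay between -0.14 and 0.07.

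The change at 10 µM was set against those of the other compounds at the same concentration and time, in 2 pairs of compounds. For 2,4-D, which shares the DMSO arrays, values were taken relative to their mean and 19 of 54613 probe sets differed (0.0348%), 12 of them higher with imazalil. CPT1A differed by 0.78 (203633_PM_at, 95% interval 0.62 to 0.94, limma adjusted p = 3.24e-07), by 0.93 (adjusted p = 0.00155) and by 0.72 (adjusted p = 0.00538) on its probe sets. Its own change with 2,4-D was -0.12. TXNIP differed by -0.66 (201009_PM_s_at, adjusted p = 0.000322) and -0.61 (201010_PM_s_at, adjusted p = 0.0321), and EGR1 by -0.65 (201693_PM_s_at, adjusted p = 0.00394) and -0.38 (201694_PM_s_at, adjusted p = 0.0165). With 2,4-D these genes had stood at -0.10 (TXNIP) and -0.03 (EGR1), on the first probe set of each. CHAC1 differed by -0.53 (limma adjusted p = 0.0164) and DDIT4 by -0.38 (adjusted p = 0.0165), both members of the ATF4 stress list. INSIG1 differed by 0.49 (201625_PM_s_at, limma adjusted p = 0.0209). DHCR7 on its second probe set (0.28, adjusted p = 0.0425) and VPS13B on one of several (0.75, adjusted p = 0.0272) also passed. ANGPT1, BPIFB6, SHFL and SNORC, named after their values were seen, and 3 probe sets without a gene name made up the rest. SNORC stood at 0.18 with imazalil and at -0.46 with 2,4-D, and ANGPT1 at 0.35 and -0.37. With the DMSO arrays kept in the fit as if separate for each compound 1 probe set passed, without the block 7, and without replicate 1, 2 or 3 there were 1, 6 and 8.

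Fenbuconazole, a triazole where imazalil is an imidazole, was compared as a difference of differences with the DMSO columns normalised with each set. The labels call these vehicle columns common to the sets. Those normalised with fenbuconazole went against that in their values (r = 0.105 to 0.185) and were fitted as separate ones, so that the contrast holds the difference between the DMSO columns as well. CPT1A (203633_PM_at) was the only 1 of 54613 probe sets that differed (0.00183%). Imazalil exceeded fenbuconazole there by 0.84 (95% interval 0.59 to 1.09, limma adjusted p = 0.00151), and the own change with fenbuconazole was -0.19. Without the replicate block, and without any 1 replicate number, limma made 0 calls, and 2284 to 3158 probe sets were under 0.05 before adjustment. TXNIP stood at -0.34 with fenbuconazole, a difference of -0.42 that did not pass (-0.73 to -0.11, adjusted p = 1.00). EGR1 on 201693_PM_s_at stood at -0.75 with fenbuconazole (adjusted p = 0.125), and the compounds differed by 0.07 with an interval of -0.32 to 0.46. On its brighter probe sets EGR1 fell with fenbuconazole, by 0.67 (201694_PM_s_at, limma adjusted p = 0.00769) and by 0.75 (227404_PM_s_at, adjusted p = 0.0290). Imazalil was there 0.36 (0.11 to 0.60) and 0.31 (-0.01 to 0.63) closer to DMSO, differences that did not pass (adjusted p = 1.00 for both). CHAC1 (-0.52) and INSIG1 (0.57) differed by 0.02 (-0.28 to 0.33) and -0.03 (-0.37 to 0.31). TRIB3 was further from DMSO with fenbuconazole (-0.67), and its difference of 0.31 (0.04 to 0.58) did not pass. These intervals are wide, and a difference that did not pass does not show that the azoles act alike.

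**Figure D5:**
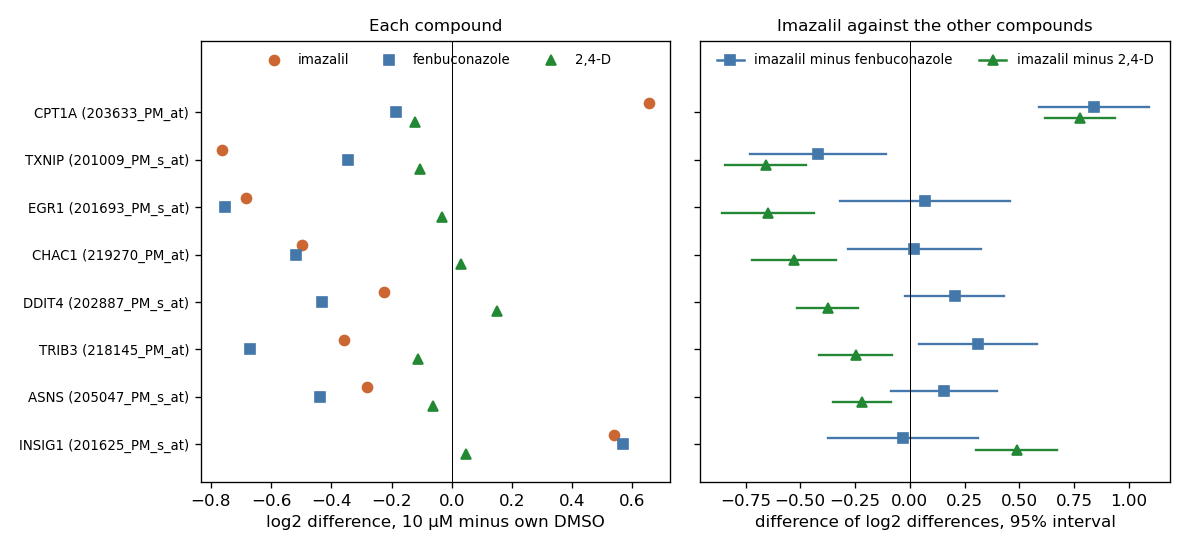
Left, log2 difference from the own DMSO arrays at 10 µM for imazalil, fenbuconazole and 2,4-D in 8 genes. Right, imazalil minus each other compound with 95% intervals, where CPT1A lies at 0.78 against 2,4-D and 0.84 against fenbuconazole, and EGR1 at -0.65 against 2,4-D and 0.07 against fenbuconazole.

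The lists' own values for the 3 compounds at 10 µM were set side by side, with no test. The fenbuconazole columns had lower medians (2.76 to 2.83) than those of the other sets, and other DMSO values. How far this alters the size of the log2 differences was not tested. The ATF4 stress list had a median of -0.14 with imazalil, -0.23 with fenbuconazole and -0.06 with 2,4-D. Amino acid and one-carbon synthesis had -0.12, -0.17 and -0.05, and immediate early genes -0.06, -0.15 and -0.01. Cholesterol synthesis enzymes had 0.07, 0.09 and 0.00. Fatty acid oxidation and PPAR targets had 0.03, -0.01 and -0.01.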

How the data were processed

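RNA of A673 cells had been measured on Affymetrix HT HG-U133+ PM arrays. The deposited values are log2 expression per probe set, which the authors had made with RMA in Partek, per the labels and the submitters' processing notes (versions not given in the sources used here), separately for the 30 columns of each chemical. No column of the file was left unmatched to a sample. RMA forces like distributions, so a shift of all genes would not be seen. Levels of different probe sets are not comparable as abundances, and the depth is that of arrays, whose number limits the precision. From these values limma 3.58.1 in R 4.3.3 was fitted to 54613 probe sets after 102 control probe sets had been left out, with group and replicate number as terms, eBayes and Benjamini-Hochberg adjustment. The fit was tested on simulated data. For 2,4-D, values minus the shared DMSO mean were fitted over 54 treated columns, and for fenbuconazole 60 columns with each set's own DMSO. Intervals are 95% and fold changes are on the log2 scale of RMA values. Of the probe sets 40914 had 1 gene symbol, 864 several and 12835 none, taken from GEO's platform annotation and updated through RefSeq. Probe sets with several symbols were not named.

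Named were probe sets that passed, the 15 genes with the smallest p in each direction, up to 5 members per list that were on the same side in all pairs, and 24 genes listed by name. The genes and lists were chosen with earlier results of these data known. Lists were described by counts and medians without a test. The alternatives were no or a random replicate block, other scalings, filters, array weights, moderated variances with a trend, leaving out arrays, and the 6 arrays alone. Promoter sequences were from RefSeq (GRCh38.p14) and read with Python 3.11.15. Plots were made with pandas 2.3.3, numpy 2.4.6 and matplotlib 3.10.9.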

Additional observations from a re-analysis of the deposited data

Results flagged for a closer look

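The differences between compounds at 10 µM that passed limma's test of the difference itself are collected here for genes with a symbol, as imazalil minus the other compound on the log2 scale. Against 2,4-D, CPT1A was at 0.78, 0.93 and 0.72 on its probe sets 203633_PM_at, 203634_PM_s_at and 210688_PM_s_at, VPS13B at 0.75, ANGPT1 at 0.72, BPIFB6 at 0.67, SNORC at 0.64, INSIG1 at 0.49, SHFL at 0.37 and DHCR7 at 0.28. TXNIP was at -0.66 (201009_PM_s_at) and -0.61 (201010_PM_s_at), EGR1 at -0.65 (201693_PM_s_at) and -0.38 (201694_PM_s_at), CHAC1 at -0.53 and DDIT4 at -0.38. Some of these differences held the change with 2,4-D as well. Against DMSO, SNORC was at 0.18 with imazalil and -0.46 with 2,4-D, ANGPT1 at 0.35 and -0.37, and BPIFB6 at 0.44 and -0.23. SHFL was at 0.28 and -0.09 and DDIT4 at -0.23 and 0.15, in the same order. Against fenbuconazole only CPT1A was found, at 0.84 on 203633_PM_at. The other 3 VPS13B probe sets differed between imazalil and 2,4-D by 0.07, 0.08 and -0.02. The fit against 2,4-D took the mean of the shared DMSO arrays as fixed. When those arrays were kept as separate for each compound 1 probe set passed.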

How the results depend on the processing

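Against DMSO, where 2 probe sets passed, the count was 0 without the replicate block and with the 6 arrays alone, 1 with 1 probe set per gene, 5 with a trended and robust prior, and 2 or 3 under the random block, other scalings, array weights or without dim probe sets. It was 0 without any replicate number, 0 to 3 without single 10 µM arrays and 0 to 2 without single DMSO arrays, and p-values of fewer arrays say nothing about stability. Against the lower concentrations (11), 6 passed without the block and 6 with a random block, 17 without dim probe sets, 22 with the trended prior, 7 with array weights, and 1 to 6 without 1 replicate number or 10 µM array. Against 2,4-D (19) the count was 7 without the block, 1 with DMSO columns kept and 1 to 8 without 1 replicate number. Against fenbuconazole (1) it was 0 without the block and 0 without any 1 replicate number. The replicate numbers paired the arrays only weakly. Same-numbered arrays had a mean correlation of deviations of 0.07 (-0.09 to 0.26, other numbers -0.03), below the 0.1 set for a pairing. For the 10 µM and DMSO pairs it was -0.05, 0.14 and 0.05, so that only the pair of replicate 2 was above 0.1. Of the 30 arrays 22 were closest to their own number. Among the named genes signs turned only for uncalled ones near 0. Leaving out 1 replicate number in turn gave -0.14 to 0.21 for CYP51A1, -0.11 to 0.0017 for DDIT3, -0.022 to 0.12 for FASN, -0.067 to 0.17 for FOS, -0.013 to 0.16 for CYP3A4, -0.31 to 0.18 for CYP1B1, -0.067 to 0.34 for HMOX1, -0.24 to 0.11 for CYP1A1 and -0.032 to 0.030 for ABCB1. Against the lower concentrations CYP1B1 was 0.039, PDK4 0.022 and ABCB1 0.021, and ABCB1 was 0.0011 with equal array medians. Of the 53 list medians 13 moved against the lower concentrations, 7 with the median over a gene's probe sets, 2 under a second quantile normalization and 8 to 12 without 1 replicate number. The cause of these shifts was not tested. With 3 arrays per group a change that did not pass is not shown to be absent.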
